A study of Mus musculus with 6 samples.

Results

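Type A intercalated cells are the acid-secreting cells of the renal collecting duct. They were examined here in single-cell RNA sequencing of whole kidneys from 3 sham and 3 DOCA-salt mice, with 1 library per mouse. The cells were chosen by their measured UMIs (unique molecular identifiers, each counting 1 captured mRNA molecule). A barcode was taken when it held at least 1000 UMIs, at most 50% mitochondrial (mt-) UMIs, at least 1 UMI of Atp6v1g3 and at least 1 UMI of Slc4a1 or Aqp6. It also had to have 0 UMIs of Slc26a4, Ptprc, Pecam1 and Col1a1, at most 0.2% of its UMIs from Lrp2, Slc34a1, Slc5a12 and Slc22a6 together, and at most 1 UMI each of Slc12a1 and Slc12a3. This gave 758 cells out of 50910 barcodes that passed the limits on UMIs and mitochondrial share, and out of 76774 deposited barcodes. The sham mice contributed 143, 72 and 122 cells and the DOCA-salt mice 123, 128 and 170 cells. No type A barcode was shared between libraries.

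All mice were male C57BL/6 of 8 to 10 weeks. The DOCA-salt mice had lost the left kidney a week before they were given a 50 mg pellet of deoxycorticosterone acetate (DOCA, a mineralocorticoid), and drank 1% NaCl for 21 days. The sham mice had a sham operation, normal water and no pellet. Nephrectomy, DOCA and salt were thus applied together and cannot be told apart, and the study asked how such mineralocorticoid excess injures the tubule and engages macrophages.

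As background, a type A cell pumps protons into the urine with a V-type ATPase and sends bicarbonate back to the blood through the anion exchanger AE1, encoded by Slc4a1. Pendrin-positive intercalated cells work in the opposite direction: their exchanger pendrin, encoded by Slc26a4, secretes bicarbonate and takes up chloride. Principal cells lie between them and reabsorb sodium and water under aldosterone and vasopressin. Intercalated cells are also known to answer urinary infection and injury with chemokines and antimicrobial proteins.

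The UMIs of the type A cells of a mouse added up to between 800998 (sham mouse 2) and 2021803 (DOCA-salt mouse 2). The median cell held 10490 to 14516 UMIs, depending on the mouse. The median mitochondrial share was 21.2% to 23.4% in sham mice and 23.7% to 26.9% in DOCA-salt mice. Every DOCA-salt mouse thus lay above every sham mouse. Results with at most 20% mitochondrial UMIs are given below, and the part of this difference in the other results was not tested. Levels are given as CPM, the UMIs of a gene scaled to a common total of UMIs in these sums. The assay counts the 3′ end of each molecule once, so a level is not divided by gene length. The mice are the replicates (n = 3 per group), and whether they shared a litter or a day is not given in the labels. The p-values measure the spread between these mice only.

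The genes that chose the cells are described first, without a test. Slc4a1 stood at 1145, 949 and 1011 CPM in the sham mice and at 656, 777 and 728 CPM in the DOCA-salt mice. The lowest sham mouse lay above the highest DOCA-salt mouse. Aqp6, an anion-permeable aquaporin of the intracellular vesicles of type A cells, stood at 2348, 2448 and 2018 CPM against 2127, 1916 and 2211 CPM, and these ranges overlapped. Atp6v1g3, a kidney-specific subunit of the proton pump, stood at 1560, 1553 and 1390 CPM against 1709, 2005 and 1636 CPM, with every DOCA-salt mouse above every sham mouse. Because these genes chose the cells, their levels depend on the rule. The median UMIs per cell overlapped for both Slc4a1 (15, 9 and 12 against 9, 10 and 7) and Atp6v1g3 (20, 17 and 15 against 24, 28.5 and 18). Between 83.5% and 95.9% of the cells of a mouse carried both Slc4a1 and Aqp6. At the edges of the rule, 41 of the 758 cells had a single UMI of Atp6v1g3. Cells between 0.15% and 0.2% of proximal tubule UMIs had medians of 0.177% to 0.191%, and barcodes just outside, up to 0.25%, had medians of 0.21% to 0.232%. Another 298 barcodes met the other limits but carried Slc26a4 beside the type A genes and were left out.

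Several markers that the rule did not use set these cells apart from pendrin-positive cells, but markers of neighbouring cells were present too. To compare cells at equal depth, each was thinned to 1000 UMIs, a step that left out no cell. Kit, a receptor tyrosine kinase, was then seen in 23.9% to 44.2% of type A cells and 3.0% to 5.7% of pendrin-positive cells, depending on the mouse. The adhesion receptor gene Adgrf5 was seen in 57.5% to 73.3% against 3.5% to 14.6%, and the transcription factor gene Dmrt2 in 9.8% to 16.5% against at most 0.4%. Hmx2, a transcription factor gene of the pendrin-positive cells, was seen in at most 1.5% of type A cells and in 22.5% to 43.2% of pendrin-positive cells. In proximal tubule cells, which lack these genes, no one of them was seen in more than 1.5% of cells. These cells were chosen with 0 UMIs of Atp6v1g3, which can lower this background. Slc4a9, encoding the exchanger AE4 and usually assigned to pendrin-positive cells, did not separate them: it was seen in 26.9% to 39.7% of thinned type A cells (71.8% to 84.7% before thinning) and in 46.3% to 68.2% of thinned pendrin-positive cells. Aqp2, the principal cell water channel, was seen in 5.59% to 20.8% of thinned type A cells (21.8% to 51.6% before thinning), a range that takes in that of Dmrt2, and in 88.3% to 91.2% of thinned principal cells. Summed markers of the distal convoluted and connecting tubule stood at 1748 to 3893 CPM in type A cells and at 977 to 1727 CPM in all kept barcodes, and those of principal cells at 1135 to 2908 and 537 to 992 CPM. Among the 758 cells, 181 held more than 1 UMI of Aqp2 or of the connecting tubule gene Calb1, 66 held fewer than 5 UMIs of 5 intercalated genes together, and 48 were marked by the doublet caller Scrublet. The main results were therefore repeated in 532 cells with at least 5 such UMIs and at most 1 UMI each of Aqp2 and Calb1, a limit chosen after the data were seen, and are given with them below as the stricter selection. Another 10 barcodes held more than 3 times the median UMIs of the type A cells of their mouse, 1 in the sham and 9 in the DOCA-salt mice, the largest with 82558 UMIs in DOCA-salt mouse 2. The 9 large DOCA-salt barcodes held 7.84% of the UMIs of the DOCA-salt type A cells, and results were also computed without the 10 large barcodes, again a limit chosen after the data were seen.

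Type A cells made up 1.61%, 1.00% and 1.40% of the kept barcodes in the sham mice and 1.41%, 1.40% and 2.04% in the DOCA-salt mice. The ranges overlapped, and the means of 1.34% ± 0.31 and 1.62% ± 0.366 (SD, n = 3) did not differ beyond the spread between mice (two-sided exact permutation test, p = 0.4, where 3 against 3 mice cannot go below 0.1). Relative to the pendrin-positive cells the picture differed. Of the type A and pendrin-positive cells together, type A cells were 58.4%, 37.3% and 52.4% in the sham mice and 62.1%, 69.9% and 72% in the DOCA-salt mice. Every DOCA-salt mouse was above every sham mouse, with means of 49.3% ± 10.8 and 68% ± 5.23 (SD, n = 3) and p = 0.1 by the exact permutation test, the smallest value the design allows. The Wilson 95% intervals of DOCA-salt mouse 1 (55.2% to 68.6%) and sham mouse 1 (52.1% to 64.4%) overlapped, and these intervals cover counting error only. With proximal tubule genes allowed up to 1% of UMIs, the groups overlapped (p = 0.2 by the same exact permutation test). The pendrin-positive counts behind these shares were 102, 121 and 111 against 75, 55 and 66 cells. Barcodes with Slc26a4 beside the type A genes were left out of both counts and numbered 48, 30 and 57 against 58, 44 and 61. With them in the denominator, DOCA-salt mouse 1 would not lie above sham mouse 1, so the separation of the groups depends on leaving them out. UMIs of Slc26a4, Slc4a1 and Aqp6 decide which of the 2 kinds a barcode is, and fewer cells of a kind cannot be told apart from less of these RNAs per cell.

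**Figure D1:**
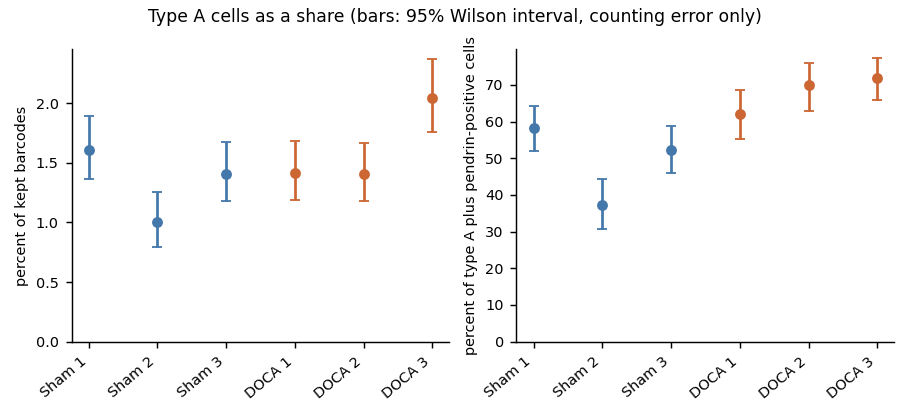
Type A cells of each mouse as a percentage of kept barcodes (left) and of type A plus pendrin-positive cells (right), with 95% Wilson intervals that cover counting error only. The left shares of the groups overlap, while the right shares run from 37.3% to 58.4% in sham mice and from 62.1% to 72% in DOCA-salt mice.

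Sums of UMIs per mouse were then compared with edgeR's quasi-likelihood test for 10314 genes, leaving out the 13 genes of the rule. In the DOCA-salt mice 84 genes were higher (0.814% of those tested) and 48 were lower (0.465%) at an adjusted p below 0.05, and 1213 genes had an unadjusted p below 0.05. The median log2 change of all genes tested was 0.00. A gene entered the test when at least 3 mice held 5.22 CPM or more of it, and 29 of the 84 higher genes reached this in no sham mouse, so that they entered through the DOCA-salt mice alone. The values of the 2 groups did not overlap, without regard to any test, for 814 genes that were higher (7.89%) and 946 genes that were lower (9.17%). These shares are the background against which the counts in the groups of genes below can be read. The number of calls depended on single mice: it was 40 without sham mouse 3, 58 without sham mouse 1 and 190 without sham mouse 2, the thinnest library. Without the 10 large barcodes 95 genes were called, 55 higher and 40 lower.

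Among the tested genes of the acid-base machinery of the type A cell, its defining function, none was called. Slc4a1, Aqp6 and Atp6v1g3 were not among them, being genes of the rule. The CPM of Slc4a1 and Atp6v1g3, which did not overlap between the groups but depend on the rule, are given above. Of the 22 V-ATPase genes listed 20 were tested and none passed the test in either direction, with a median log2 change of -0.04 and a range from -0.52 to 0.43. Atp6v1b1, the B1 subunit of the kidney pump, stood at 351, 529 and 389 CPM in sham mice and at 307, 301 and 278 CPM in DOCA-salt mice, and did not pass (log2 change -0.49 ± 0.17 SE, adjusted p = 0.233 in edgeR). Atp6v1c2, the C2 subunit, stood at 651, 772 and 679 CPM against 549, 426 and 468 CPM (log2 change -0.52 ± 0.15, edgeR adjusted p = 0.146). The groups of these 2 genes did not overlap, as was the case for 6 of the 20 subunits on the lower side and 1 on the higher side.

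Of 15 genes of acid-base transport 14 were tested and 0 were called, with 3 at an unadjusted p below 0.05. Car2, the cytosolic carbonic anhydrase that supplies protons to the pump, stood at 1258, 1658 and 1354 CPM against 1586, 1503 and 1455 CPM. The ammonia channel gene Rhcg lay between 583 and 647 CPM in sham mice and between 631 and 669 CPM in DOCA-salt mice. Slc26a7, a chloride-bicarbonate exchanger of the basolateral side, lay between 71.1 and 135 CPM against 80.5 and 108 CPM. Slc4a9 was lower in every DOCA-salt mouse (591, 471 and 635 CPM against 388, 451 and 373 CPM) but did not pass the test (log2 change -0.47 ± 0.16, edgeR adjusted p = 0.227). Among 14 tested genes of chloride and potassium transport none was called, and 6 had groups that did not overlap, 4 higher and 2 lower. Their summed level was 4524 to 4784 CPM in sham and 4923 to 5210 CPM in DOCA-salt mice. The 74 nuclear genes of the respiratory chain, all tested, had changes between -0.27 and 0.26 and a median of -0.01, with none called. The 13 mitochondrially encoded genes had a median of 0.05, with none called.

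None of the 15 genes of the mineralocorticoid response passed the test, and their median log2 change was -0.28, with 11 of the 15 below 0. Their summed level, which was not tested, lay between 2893 and 3167 CPM in sham mice and between 2496 and 2678 CPM in DOCA-salt mice, without overlap. The list holds the receptor genes Nr3c2 and Nr3c1 beside induced genes such as Sgk1. It also holds Hsd11b2 and Nedd4l, so the sum does not measure induction alone. Hsd11b2, Scnn1b and Scnn1g of this list are principal cell markers as well, and the part of principal cell RNA in the sum was not tested. Nr3c2, the mineralocorticoid receptor, stood at 464, 733 and 579 CPM in sham mice and at 447, 407 and 470 CPM in DOCA-salt mice, with groups that overlapped. Sgk1, the aldosterone-induced kinase, stood at 90.6, 107 and 90.9 CPM against 75.7, 77.2 and 62.7 CPM (log2 change -0.39 ± 0.16, edgeR adjusted p = 0.327). In the stricter selection Sgk1 passed the test, with a log2 change of -0.92 and an edgeR adjusted p of 0.0146. Scnn1a, the alpha subunit of the epithelial sodium channel, stood at 300.0, 296 and 310 CPM against 346, 365 and 367 CPM (log2 change 0.27 ± 0.13, edgeR adjusted p = 0.452). The transcription factors of intercalated identity and Notch genes were likewise without a call among 13 tested. Foxi1, the master regulator of intercalated cells, stood at 178, 287 and 144 CPM against 338, 217 and 264 CPM, and the groups overlapped.

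**Figure D2:**
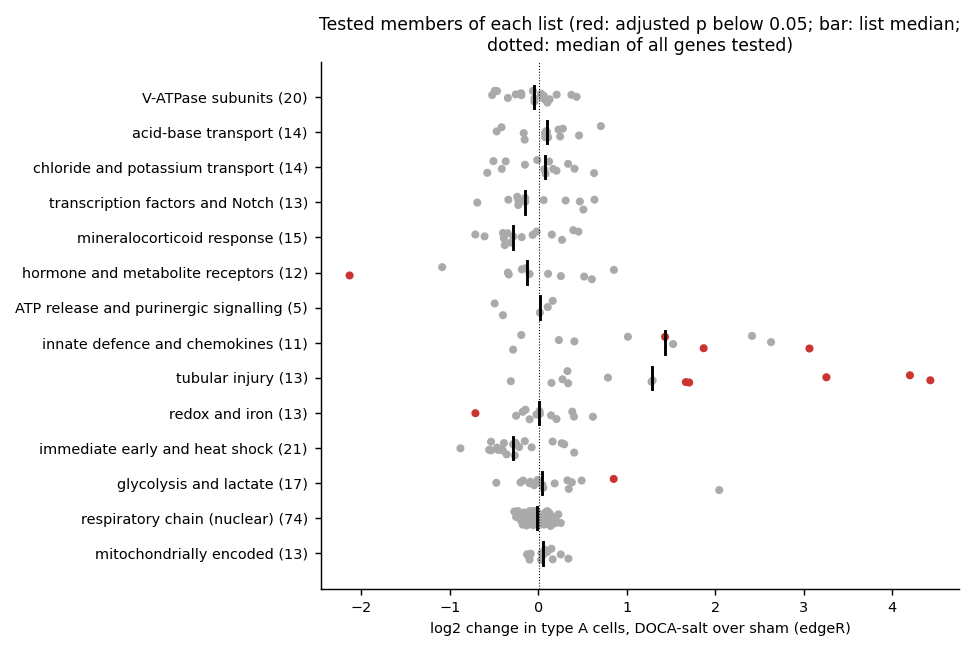
Log2 change (DOCA-salt over sham) of every tested gene in 14 lists, with the number tested in parentheses, red points for an adjusted p below 0.05 and a bar at each list's median. The transport and respiratory lists have medians from -0.04 to 0.10 beside the dotted median of all genes and the mineralocorticoid list one of -0.28, and the red points on the higher side belong to the innate defence, tubular injury and glycolysis lists.

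The channels and receptors of ATP release, which the study asked about in tubular cells, were mostly too low for the test. Of 19 listed genes 5 (P2rx4, P2ry14, Entpd5, Nt5e and Adora1) were tested and none was called. P2rx4, an ATP-gated channel, stood at 42.0, 33.7 and 34.8 CPM in sham mice and at 33.1, 36.1 and 43.0 CPM in DOCA-salt mice, with groups that overlapped (log2 change 0.02 ± 0.18, edgeR adjusted p = 0.986). Panx1, the pannexin 1 channel, had 2, 0 and 1 UMIs in all type A cells of the sham mice and 1, 1 and 3 UMIs in those of the DOCA-salt mice, so a difference was not detectable at this depth. P2rx7, the ATP-gated receptor, had 5, 2 and 1 against 1, 2 and 4 UMIs. P2ry14, a receptor for UDP-glucose by which intercalated cells call in neutrophils, was the best measured of the receptors. It stood at 107, 126 and 90.9 CPM in sham mice and 83.2, 67.3 and 74.3 CPM in DOCA-salt mice, every one of them lower, and did not pass the test (log2 change -0.49 ± 0.16, edgeR adjusted p = 0.225).

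In the list of innate defence and chemokine genes, 3 of the 11 tested rose and none fell, and the list's median log2 change was 1.43 beside 0.00 for all genes. Of the 11, Cxcl2 and Cfi reached the minimum for the test in no sham mouse, and among the other 9 genes 2 rose and the median was 1.01. Spp1, the secreted phosphoprotein osteopontin, stood at 791, 1233 and 980 CPM in sham mice and at 4162, 1996 and 4649 CPM in DOCA-salt mice. All DOCA-salt mice lay above all sham mice, with means of 1002 ± 222 and 3602 ± 1412 CPM (SD, n = 3), a log2 change of 1.87 ± 0.27 SE and an edgeR adjusted p of 0.00547. Spp1 was also higher, without a test, in proximal tubule cells, with means of 917 and 2968 CPM, and in all kept barcodes, with 1069 and 4483 CPM. In cells thinned to 1000 UMIs it was seen in 37.9% to 49.2% of sham and 73.7% to 86.3% of DOCA-salt type A cells, and in 40.4% to 58.7% and 73.7% to 89.0% of proximal tubule cells. The part of free Spp1 RNA in this rise was not tested.

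Cxcl2, a neutrophil-attracting chemokine, had 4, 1 and 1 UMIs in the sham mice and 18, 34 and 20 UMIs in the DOCA-salt mice. This was 1.33 ± 0.686 against 12.2 ± 4.03 CPM (SD, n = 3; log2 change 3.07 ± 0.50, edgeR adjusted p = 0.00949). Proximal tubule cells held 1.25 and 3.64 CPM of Cxcl2. Icam1, the adhesion molecule that binds leukocyte integrins, stood at 11.3, 8.74 and 8.20 CPM against 30.4, 22.3 and 24.8 CPM (log2 change 1.43 ± 0.26, edgeR adjusted p = 0.0189), and at 18.7 and 21.8 CPM in proximal tubule cells. The groups of both genes were apart. The 9 large barcodes held 44.4% of the Cxcl2 and 29.1% of the Icam1 UMIs of the DOCA-salt mice. Without the 10 large barcodes Icam1 was not called (log2 change 1.05, edgeR adjusted p = 0.266), Cxcl2 had too few UMIs for a test, and Spp1 kept its call (log2 change 1.79, edgeR adjusted p = 0.00589). Lcn2, the iron-binding antimicrobial lipocalin, stood at 46.1, 1.25 and 13 CPM against 140, 183 and 54.6 CPM and did not pass (log2 change 2.42 ± 0.56, edgeR adjusted p = 0.0609). The complement gene C3 had 1, 1 and 0 UMIs against 120, 7 and 115 UMIs, of which the large barcodes held 127, and did not pass the filter for the test within type A cells. Pendrin-positive cells held 9, 0 and 2 against 4, 3 and 6 UMIs of C3. In the stricter selection Spp1 and Icam1 rose among 7 tested genes of the list (edgeR adjusted p = 1.87e-05 and 0.0266), the median was 0.45 and Cxcl2 had too few UMIs for a test. With the same number of cells and UMIs per mouse the median was 0.30, with 1 of 6 tested genes called. That setting took 66 cells per mouse, each thinned to 5000 UMIs. In cells without Aqp2 and Slc4a9 the median was 0.15, with 0 of 4 called. Fewer of the 11 genes were tested in these settings and in the stricter selection, so their medians are not over the same genes. Without sham mouse 3 no gene of the list passed, with edgeR adjusted p = 0.0607 for Spp1, 0.0961 for Cxcl2 and 0.132 for Icam1. Icam1 also missed the threshold without sham mouse 1 (0.0596), DOCA-salt mouse 1 (0.0734) or DOCA-salt mouse 3 (0.0501), and in cells with at least 1 UMI of Slc4a1 (0.119).

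The 250 bases before the transcription start of Cxcl2 and Icam1 are shown because these leukocyte-directed genes rose together. They were read from GRCm39 upstream of the canonical transcript start in the GENCODE annotation, 5′ to 3′ on the gene's strand. Both strands were searched for the kappaB motif GGANTTTCC (GGAAANTCC on the other strand), where N is any base, and matches are in capitals. The motif occurs in 1.18% of 21751 promoters of protein-coding genes of the same length. Cxcl2 (chr5:91051480-91051729, plus strand) holds 1 match that begins 68 bases before the start, and Icam1 (chr9:20926422-20926671, plus strand) holds 0. A match is a string of letters and not a measured binding site.

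Cxcl2: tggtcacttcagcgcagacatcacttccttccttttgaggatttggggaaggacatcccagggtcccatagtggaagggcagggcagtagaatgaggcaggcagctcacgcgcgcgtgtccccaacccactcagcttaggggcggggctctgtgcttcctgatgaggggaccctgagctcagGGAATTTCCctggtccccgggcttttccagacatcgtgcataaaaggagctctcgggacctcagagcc
Icam1: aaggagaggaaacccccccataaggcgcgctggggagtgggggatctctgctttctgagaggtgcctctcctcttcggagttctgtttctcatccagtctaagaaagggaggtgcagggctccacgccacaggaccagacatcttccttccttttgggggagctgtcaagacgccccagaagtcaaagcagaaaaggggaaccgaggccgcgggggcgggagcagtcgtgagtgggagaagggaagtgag

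In the list of tubular injury genes, 5 of the 13 tested rose and none fell, and 8 had groups that did not overlap, all higher. The list's median log2 change was 1.28. Of the 5 called genes Krt19, Sox9 and Vcam1 reached the minimum for the test in no sham mouse, and among the other 10 genes 2 rose and the median was 0.56. With the same number of cells and UMIs per mouse the median was -0.02, with 2 of 9 tested genes called. In cells without Aqp2 and Slc4a9 it was -0.09, with 0 of 9 called. Fewer of the 13 genes were tested in these settings, so their medians are not over the same genes. S100a6, a calcium-binding protein of regenerating epithelium, stood at 21.5, 9.99 and 5.47 CPM in sham mice and at 82.1, 121 and 177 CPM in DOCA-salt mice, with no overlap (12.3 ± 8.27 against 127 ± 47.7 CPM; log2 change 3.26 ± 0.37, edgeR adjusted p = 0.00249). Tmsb10, an actin-binding thymosin, stood at 33.8, 27.5 and 19.8 CPM against 70.4, 95.5 and 92.0 CPM (log2 change 1.67 ± 0.21, edgeR adjusted p = 0.00403). Krt19, a keratin of dedifferentiated tubules, had 5, 1 and 0 UMIs against 30, 76 and 53 UMIs (log2 change 4.20 ± 0.56, edgeR adjusted p = 0.00447). All 3 were low in proximal tubule cells: in the DOCA-salt mice these held 13.6 CPM of S100a6, 9.78 CPM of Tmsb10 and 0.248 CPM of Krt19.

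Sox9, a transcription factor of tubular repair, had 7, 3 and 6 UMIs against 19, 28 and 26 UMIs (log2 change 1.71 ± 0.35, edgeR adjusted p = 0.0336). Vcam1, an adhesion molecule of tubules that fail to repair, had 2, 0 and 0 UMIs against 13, 14 and 41 UMIs (edgeR adjusted p = 0.0228), and its fold is poorly fixed because 2 sham mice had none. Clu, encoding the chaperone clusterin, stood at 296, 140 and 469 CPM against 694, 1057 and 443 CPM, with groups that overlapped (log2 change 1.28 ± 0.37, edgeR adjusted p = 0.140). Havcr1, the injury molecule KIM-1 of the proximal tubule, had 0 UMIs in each sham mouse and 3, 1 and 27 UMIs in the DOCA-salt mice and was not tested. The large barcodes held 28 of these 31 UMIs, and 52.9% of the Vcam1, 41.5% of the Krt19, 30.2% of the S100a6, 30.1% of the Sox9 and 27.8% of the Tmsb10 UMIs of the DOCA-salt mice. Without the 10 large barcodes S100a6, Tmsb10 and Krt19 were called (log2 changes 2.91, 1.37 and 3.55, edgeR adjusted p = 0.0225, 0.00589 and 0.0102), Sox9 was not (1.31, edgeR adjusted p = 0.165), Vcam1 had too few UMIs for a test, and the median of the list was 0.62. The part of several cells under 1 barcode in these values was not tested. In the stricter selection 2 of 10 tested genes of the list rose and the median was 0.43. S100a6 and Tmsb10 were those 2 (edgeR adjusted p = 0.00068 and 0.000621), and too few UMIs of Krt19, Sox9 and Vcam1 were left there for a test. Sox9 lost its call without any 1 of 5 mice, sham mouse 2 excepted, with adjusted p up to 0.174 in edgeR. It was not called by DESeq2 (adjusted p = 0.114), without Scrublet doublets (edgeR adjusted p = 0.0941) or in cells with at least 1 UMI of Slc4a1 (0.0532). Vcam1 lost it without sham mouse 1, sham mouse 3 or DOCA-salt mouse 3 (0.0838, 0.174 and 0.0562), with a log2 change of 7.24 in the first case.

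**Figure D3:**
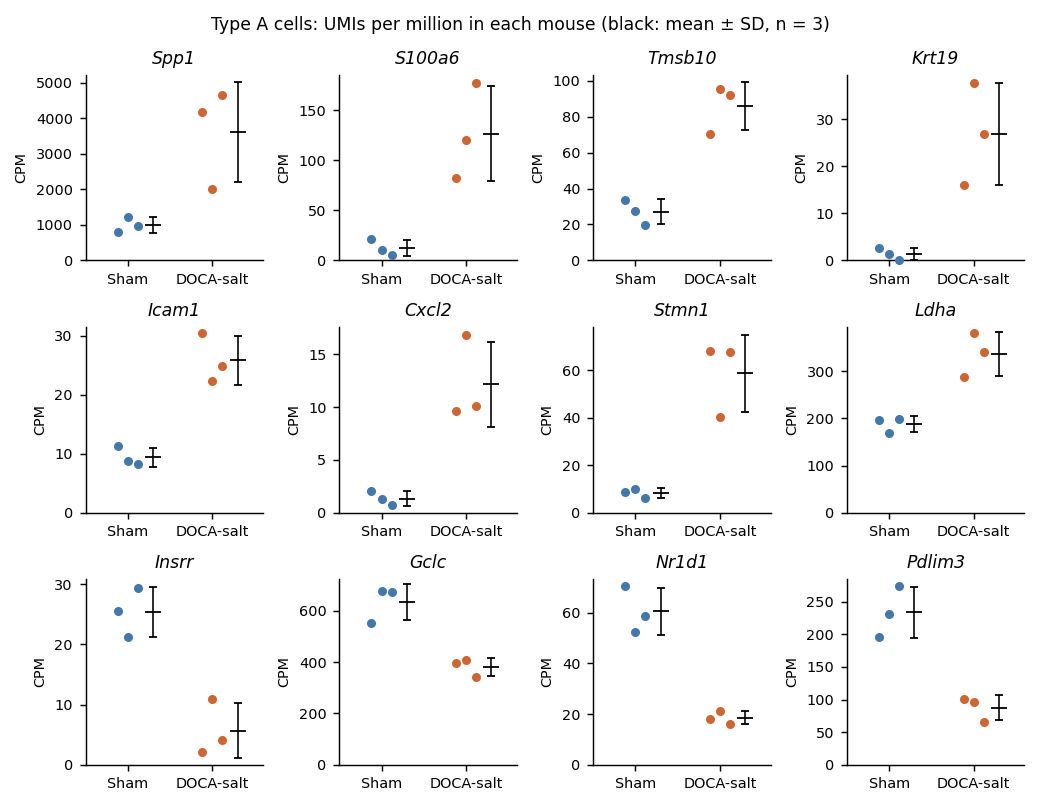
CPM in the type A cells of each mouse for 12 genes that passed the test, with the mean and SD (n = 3) in black and every vertical axis starting at 0. In each panel the 3 sham and 3 DOCA-salt values do not overlap, as for Tmsb10 with 19.8 to 33.8 CPM against 70.4 to 95.5 CPM. Krt19 and Cxcl2 reached the minimum for the test in no sham mouse and entered it through the DOCA-salt mice alone.

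Metabolic and receptor lists each held at most 1 call. Ldha, the lactate dehydrogenase subunit that favours lactate, was the single called gene of 17 tested in glycolysis, at 198, 169 and 198 CPM against 287, 382 and 341 CPM (log2 change 0.85 ± 0.15, edgeR adjusted p = 0.0159). Gclc, the rate-limiting enzyme of glutathione synthesis, was the single called gene of 13 in the redox and iron list, and fell from 552, 679 and 674 CPM to 398, 408 and 341 CPM (log2 change -0.71 ± 0.15, edgeR adjusted p = 0.0393). Insrr, encoding an insulin receptor-related receptor that senses alkaline pH, was the single called gene of 12 tested receptors, with 50, 17 and 43 UMIs against 4, 22 and 8 UMIs (log2 change -2.13 ± 0.41, edgeR adjusted p = 0.0234). Insrr is a gene of the pendrin-positive cells, where it stood at means of 426 and 451 CPM, against 25.4 and 5.69 CPM in type A cells. The summed level of the 6 pendrin-positive markers, Insrr among them and Slc26a4 at 0 by the rule, was 698 to 889 CPM in sham and 695 to 854 CPM in DOCA-salt type A cells. This sum hides opposite moves: of the 4 tested markers 3 had negative changes, Insrr and Slc4a9 among them, and 1, Spink8, a positive one. Spink8 stood at means of 196 and 319 CPM in type A cells and 205 and 714 CPM in principal cells. In the stricter selection Ldha and Insrr kept their calls (edgeR adjusted p = 0.0178 and 0.00703), while Gclc did not (log2 change -0.51, edgeR adjusted p = 0.155). Ldha lost its call without any 1 of 4 mice (edgeR adjusted p up to 0.101), as did Insrr (up to 0.185), and Gclc without any 1 of 5 mice (up to 0.217) or without the 10 large barcodes (0.0536).

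Avpr1a, the vasopressin receptor of intercalated cells, stood at 78.3, 86.1 and 90.9 CPM against 132, 109 and 142 CPM and did not pass (log2 change 0.61 ± 0.15, edgeR adjusted p = 0.0913). Ptger3, a prostaglandin E2 receptor, stood at 64.0, 79.9 and 62.9 CPM against 96.5, 87.5 and 104 CPM (log2 change 0.52 ± 0.16, edgeR adjusted p = 0.164). Oxgr1, the receptor for 2-oxoglutarate that serves acid-base balance, lay between 288 and 345 CPM against 245 and 327 CPM. Of the 21 tested immediate early and heat shock genes none was called. Their median log2 change was -0.28, and 8 were lower in every DOCA-salt mouse while 1 was higher. Their summed level was 10769 to 13994 CPM in sham and 8749 to 10338 CPM in DOCA-salt mice, without overlap.

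Outside the lists, the largest rises and falls, up to 10 each way, among called genes of at least 20 CPM and with no overlap were taken. Stmn1, a microtubule-destabilizing protein, led the rises, with 8.70, 9.99 and 6.15 CPM in sham mice and 68.2, 40.1 and 67.8 CPM in DOCA-salt mice (log2 change 2.87 ± 0.29, edgeR adjusted p = 0.00161). Summed over 5 cycling markers (Mki67, Top2a, Birc5, Cdk1 and Ccnb1), type A cells held 5.12, 2.50 and 0.683 CPM in sham mice and 45.3, 4.95 and 58.7 CPM in DOCA-salt mice, lowest in DOCA-salt mouse 2, as Stmn1 was. Proximal tubule cells held 4.36 to 7.96 CPM of these markers in sham and 1.27 to 3.73 CPM in DOCA-salt mice. Top2a, a topoisomerase of dividing cells, had 2, 0 and 0 against 36, 6 and 27 UMIs, and none of the 5 had enough UMIs for a test. The 9 large barcodes held 137 of the 343 Stmn1 UMIs of the DOCA-salt mice, and without the 10 large barcodes DOCA-salt mouse 3 went from 134 to 24 UMIs of Stmn1 and from 27 to 3 of Top2a. Stmn1 then missed the threshold (log2 change 2.33, edgeR adjusted p = 0.0597). The part of cycling cells in the rises of Stmn1 and of the tubulin gene Tubb5 was not tested. The next largest rises were those of H2-Eb1, an MHC class II chain, Plac8 and D17H6S56E-5, with log2 changes of 2.39, 2.37 and 2.01. The large barcodes held 30.2% of the H2-Eb1 and 41% of the Plac8 UMIs of the DOCA-salt mice, and without the 10 large barcodes the log2 changes were 1.99 and 1.74, both still called (edgeR adjusted p = 0.0103 and 0.0365). H2-Eb1 was at similar levels in proximal tubule cells, with means of 8.76 and 44.9 CPM against 7.5 and 39.4 CPM in type A cells, and at 155 and 498 CPM in all kept barcodes. D17H6S56E-5 was more abundant in principal cells, with means of 248 and 659 CPM against 19.9 and 91.3 CPM in type A cells. With the same number of cells and UMIs per mouse its log2 change was 0.65 (edgeR adjusted p = 0.819), and DESeq2 did not call it (adjusted p = 0.161). The part of RNA from other cells in these rises was not tested. The membrane repair gene Myof stood at 33.3, 11.2 and 23.2 CPM against 72.0, 91.0 and 118 CPM (log2 change 1.94 ± 0.27, edgeR adjusted p = 0.00447). Creb5, a transcription factor of the CREB family, stood at 15.4, 15.0 and 24.6 CPM against 66.1, 52.9 and 78.4 CPM (log2 change 1.84 ± 0.23, edgeR adjusted p = 0.00416). The 9 rises named here were all called in principal cells too, with Plac8 rising from 3.57 to 35.3 CPM (log2 change 3.28, edgeR adjusted p = 0.000197), Myof from 55.4 to 218 CPM (1.98, edgeR adjusted p = 4.42e-05) and Creb5 from 15.7 to 60.9 CPM (1.92, edgeR adjusted p = 0.00177). Tgfb2 (transforming growth factor beta 2), Flna (filamin A) and Tubb5 (a tubulin) were also among the rises, with log2 changes of 1.79, 1.77 and 1.63. Tgfb2 was not called in the stricter selection (log2 change 0.56, edgeR adjusted p = 0.589) or without the 10 large barcodes (log2 change 1.01, edgeR adjusted p = 0.374), and Plac8 was not called in cells with at least 1 UMI of Slc4a1 (edgeR adjusted p = 0.214). Without sham mouse 3 the calls of H2-Eb1, Plac8, D17H6S56E-5, Myof, Flna and Tubb5 were lost, with edgeR adjusted p from 0.0554 for Myof to 0.21 for D17H6S56E-5. Without sham mouse 1 those of H2-Eb1, Plac8, Flna and Tubb5 were lost (edgeR adjusted p = 0.117, 0.0805, 0.0688 and 0.0644), and D17H6S56E-5 was also lost without DOCA-salt mouse 1 or 2 (0.0512 and 0.0761).

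Gpc5, a cell surface glypican, led the falls, from 51.2, 64.9 and 67.6 CPM to 11.2, 12.4 and 5.56 CPM (log2 change -2.61 ± 0.26, edgeR adjusted p = 0.00161). Gpc5 was more abundant in principal cells, where it fell from 327 to 51.2 CPM (log2 change -2.67, edgeR adjusted p = 4.84e-06), and it also fell in pendrin-positive cells (log2 change -4.32, edgeR adjusted p = 2.79e-05). The potassium channel subunit gene Kcne1 fell from 50.7, 28.7 and 41.7 CPM to 10.7, 14.8 and 9.61 CPM (log2 change -1.81 ± 0.26, edgeR adjusted p = 0.00469). Kcne1 fell from 258 to 53.4 CPM in principal cells (log2 change -2.27, edgeR adjusted p = 9.1e-05) and from 60.4 to 23.3 CPM in pendrin-positive cells (log2 change -1.29, edgeR adjusted p = 0.0372). The part of principal cell RNA in the falls of Gpc5 and Kcne1 was not tested. Pdlim3, an actin-associated LIM protein, fell from 196, 231 and 275 CPM to 100.2, 96.4 and 65.7 CPM (log2 change -1.39 ± 0.19, edgeR adjusted p = 0.00447). Smim6, encoding a small membrane protein, fell from 168, 197 and 141 CPM to 66.7, 75.7 and 55.1 CPM (log2 change -1.33 ± 0.17, edgeR adjusted p = 0.00416). Fxyd3, of the family that regulates the sodium pump, fell by 1.43 on the log2 scale (edgeR adjusted p = 0.0360). Inmt, Cyp4b1 and Dnase1 fell by 2.31, 1.5 and 1.3 on the log2 scale, and in proximal tubule cells these 3 were more abundant and lower too, with means of 280 and 71.9 CPM, 688 and 382 CPM, and 532 and 251 CPM. The part of free proximal tubule RNA in these 3 falls was not tested. Fxyd3 and Cyp4b1 lost their calls without any 1 of 5 mice, Dnase1 without any 1 of 4 and Inmt without sham mouse 1 or 3, with edgeR adjusted p up to 0.288. Without the 10 large barcodes Fxyd3 and Dnase1 were not called (edgeR adjusted p = 0.057 and 0.0658).

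The remaining falls were the nuclear receptor genes Nr1d1 and Nr1d2 (REV-ERB alpha and beta), which repress transcription within the circadian clock. Nr1d1 fell from 70.7, 52.4 and 58.8 CPM to 18.1, 21.3 and 16.2 CPM (log2 change -1.71 ± 0.19, edgeR adjusted p = 0.00249). Nr1d2 fell from 71.2, 125 and 62.2 CPM to 30.4, 34.1 and 38.4 CPM (log2 change -1.25 ± 0.24, edgeR adjusted p = 0.0228). Both were lower in proximal tubule cells as well, with means of 97.0 and 27.7 CPM for Nr1d1 and 141 and 61.3 CPM for Nr1d2. Nr1d2 missed the threshold without any 1 of 4 mice (edgeR adjusted p up to 0.0985). The upstream sequences of the pair are shown because the genes fell together, and the E-box CACGTG, which reads the same on both strands, was searched. It occurs in 6.26% of the 21751 promoters. Neither Nr1d1 (chr11:98666160-98666409, minus strand) nor Nr1d2 (chr14:4230295-4230544, plus strand) holds it in this window of GRCm39, so no letters are in capitals.

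Nr1d1: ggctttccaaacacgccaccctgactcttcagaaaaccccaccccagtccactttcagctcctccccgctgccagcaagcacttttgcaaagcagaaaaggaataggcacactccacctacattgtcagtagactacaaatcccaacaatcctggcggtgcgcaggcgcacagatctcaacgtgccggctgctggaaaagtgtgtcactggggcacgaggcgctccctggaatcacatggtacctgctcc
Nr1d2: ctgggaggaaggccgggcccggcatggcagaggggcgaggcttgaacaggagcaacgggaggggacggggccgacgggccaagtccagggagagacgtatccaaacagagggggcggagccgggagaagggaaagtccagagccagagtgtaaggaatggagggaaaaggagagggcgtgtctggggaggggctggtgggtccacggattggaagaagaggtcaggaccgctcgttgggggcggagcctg

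Markers of other cells moved with the groups and are given beside these results. Summed over 6 stromal markers, type A cells held 1.25 to 4.10 CPM in sham mice and 34.7 to 73.7 CPM in DOCA-salt mice. Proximal tubule cells of the same libraries held 1.58 to 7.47 and 33.0 to 69.2 CPM, and all kept barcodes 50.4 to 86.1 and 1037 to 1858 CPM. In type A cells most of this was Mgp, encoding matrix Gla protein, with 7, 0 and 0 against 43, 117 and 95 UMIs (edgeR adjusted p = 0.00416), while Postn was at 0. The log2 change of Mgp was 4.68, and 9.14 without sham mouse 1, the only sham mouse with a UMI, and Mgp reached the minimum for the test in no sham mouse. Summed over 6 macrophage markers, type A cells held 13.7 to 42.5 against 57.1 to 183 CPM, and none of the 6 was at 0. Cd74, the invariant chain of MHC class II, made up most of the highest of these values, with 23.0, 8.74 and 15.7 CPM in sham mice and 29.9, 45.5 and 141 CPM in DOCA-salt mice, and did not pass (edgeR adjusted p = 0.0903). The large barcodes held 34.3% of its DOCA-salt UMIs. Lyz2, the lysozyme of macrophages, had 2, 2 and 1 against 20, 29 and 29 UMIs (log2 change 3.41 ± 0.47, edgeR adjusted p = 0.00447), and stood at means of 1.29 and 16.1 CPM in proximal tubule cells. Lyz2 too reached the minimum for the test in no sham mouse. Endothelial markers held 7.49 to 15.9 against 22.9 to 30.7 CPM. The part of RNA from other cells in the rises above was not tested.

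**Figure D4:**
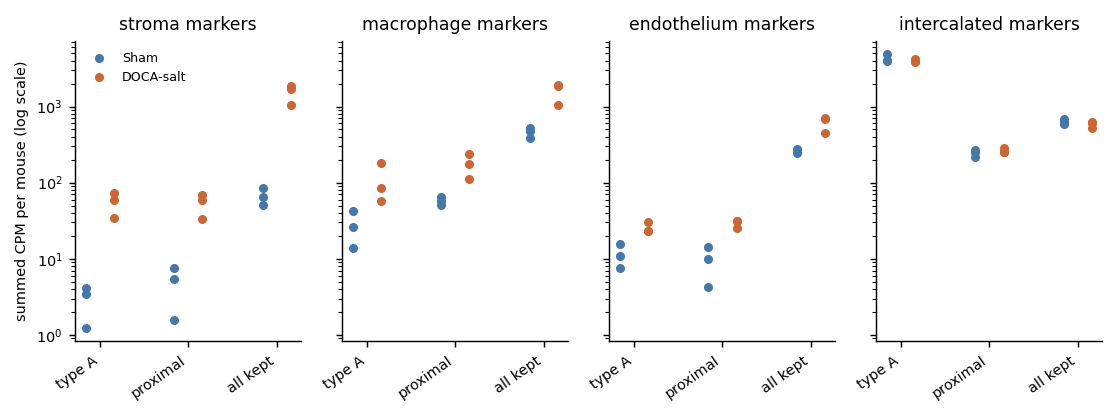
Summed CPM (log scale) of stromal, macrophage, endothelial and intercalated markers in each mouse, in type A cells, proximal tubule cells and all kept barcodes. Stromal markers reach 34.7 to 73.7 CPM in DOCA-salt type A cells and 33.0 to 69.2 CPM in DOCA-salt proximal tubule cells, while intercalated markers stay between 3882 and 4838 CPM in type A cells of both groups.

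Principal cell markers summed to 1135 to 2908 CPM in sham and 1221 to 2681 CPM in DOCA-salt type A cells, and those of the connecting and distal convoluted tubule to 1933 to 3369 and 1748 to 3893 CPM. Both ranges overlapped, but the members of the second list did not move alike. Of its 5 tested genes 4 had positive changes and none was called. Slc8a1, the sodium-calcium exchanger, stood at 536, 714 and 683 against 2128, 882 and 1042 CPM, every DOCA-salt mouse above every sham mouse (log2 change 1.10 ± 0.28, edgeR adjusted p = 0.0922), and Klk1, a kallikrein, at 1795, 920 and 2414 against 1196, 642 and 938 CPM (log2 change -0.87 ± 0.30, edgeR adjusted p = 0.247). One thick limb marker, the inositol transporter gene Slc5a3, rose from 51.7, 77.4 and 60.8 to 114, 107 and 159 CPM (log2 change 1.05 ± 0.20, edgeR adjusted p = 0.0218). It is induced by hypertonicity in many tubular cells, and the other 3 tested markers of that list were not called. Its call was lost without sham mouse 1, sham mouse 3 or DOCA-salt mouse 3 (edgeR adjusted p = 0.117, 0.158 and 0.0836).

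Whether the changes were those of the other collecting duct cells was tested as a difference between changes, in a model with the mouse as block. Pendrin-positive cells (530, chosen like type A cells but with Slc26a4 and without Slc4a1 and Aqp6) were compared first. Of 10424 genes tested, 38 had a more positive change in type A cells (0.365%) and 21 a more negative one (0.201%). With scaling by library size alone the split was 56 and 12, and the median difference of all genes moved from 0.00 to 0.13, so differences are best read relative to it. Adgrf5 differed most clearly: it rose in pendrin-positive cells from a mean of 40.7 to 188 CPM, whereas in type A cells it stood at 980, 1176 and 1020 against 1083, 1136 and 1524 CPM and was not called (difference -2.10 ± 0.19, edgeR adjusted p = 5.4e-06). Insrr had a difference of -2.38 ± 0.31 (edgeR adjusted p = 0.000643), with a change of 0.22 in pendrin-positive cells that was not called. Creb5 differed the other way, by 2.31 ± 0.34 (edgeR adjusted p = 0.00173), and its change in pendrin-positive cells was -0.43 and not called. Its difference from principal cells was -0.09 ± 0.35 (edgeR adjusted p = 0.936). The 3 differences from pendrin-positive cells passed in all 6 fits that left out a mouse.

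Spp1 rose more in type A than in pendrin-positive cells, by 0.88 ± 0.18 on the log2 scale (edgeR adjusted p = 0.0274). Its mean in pendrin-positive cells was 2452 CPM in sham mice and 4242 CPM in DOCA-salt mice, against 1002 and 3602 CPM in type A cells. Of the 13 tested injury genes 3, S100a6, Tmsb10 and Krt8, also had more positive changes in type A cells, by 2.04 ± 0.40, 1.06 ± 0.24 and 1.28 ± 0.20 (edgeR adjusted p = 0.0186, 0.0432 and 0.00271). Icam1 did so by 1.93 ± 0.40 (edgeR adjusted p = 0.0316). Pdlim3 had a difference of -1.94 ± 0.30 (edgeR adjusted p = 0.00273), with a change of 0.55 in pendrin-positive cells that was not called. These 6 genes passed in 1 to 5 of the 6 fits that left out a mouse and kept their direction in all 6. Without sham mouse 1, Spp1, S100a6, Tmsb10, Krt8 and Icam1 did not pass (edgeR adjusted p = 0.175, 0.807, 0.279, 0.0617 and 0.36), and the pendrin-positive cells of that mouse held 279 of the 338 sham UMIs of S100a6. Cxcl2 was not tested within pendrin-positive cells, where it had 75, 0 and 4 UMIs in sham and 4, 4 and 9 UMIs in DOCA-salt mice. With barcodes of more than 3 times the median UMIs left out of each cell type, 38 genes differed in place of 59, and Spp1, Tmsb10 and Icam1 did not pass (edgeR adjusted p = 0.0652, 0.208 and 0.148), while S100a6, Krt8 and Pdlim3 did (0.0309, 0.00868 and 0.00517). None of the barcodes so left out was a pendrin-positive cell.

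Principal cells (932, with at least 2 UMIs of Aqp2, at least 1 of Fxyd4 and none of Atp6v1g3, Slc4a1 and Slc26a4) differed more widely. The sham mice held 665 of them and the DOCA-salt mice 267. Calb1 was seen in 42.0% to 48.0% of thinned principal cells of sham mice and 25.2% to 34.6% of those of DOCA-salt mice. The part of a changed make-up of these cells in the differences was not tested. Of 11005 genes tested, 138 had a more positive change in type A cells (1.25%) and 164 a more negative one (1.49%). The ammonia transporter gene Rhbg stood at means of 587 and 518 CPM in type A cells and fell from 225 to 29.9 CPM in principal cells (difference 2.72 ± 0.20, edgeR adjusted p = 1.14e-06). Atp4a, a subunit of the gastric type proton-potassium pump, stood at 44.0 and 47.6 CPM in type A cells and fell from 97.6 to 13.7 CPM in principal cells (difference 2.98 ± 0.25, edgeR adjusted p = 5.13e-06). Oxgr1 fell in principal cells from 10.4 to 1.46 CPM (63 and 5 UMIs in all), with a difference of 2.64 ± 0.46 (edgeR adjusted p = 0.00341). Sgk1 rose in principal cells from 109 to 205 CPM and was not called in type A cells, with a difference of -1.33 ± 0.25 (edgeR adjusted p = 0.00565). These 4 passed in all 6 fits that left out a mouse. Of the 13 tested injury genes 0 had a more positive change in type A than in principal cells and 1, Sox4, a more negative one, and of the 11 innate defence genes the counts were 0 and 1, Nfkbia. S100a6, Tmsb10, Krt8, Spp1 and Icam1 rose in principal cells too, by 2.06, 1.73, 1.17, 1.25 and 0.75 on the log2 scale (edgeR adjusted p = 0.0366, 7.93e-05, 0.00144, 0.00424 and 0.0384). Their differences of 0.86 ± 0.66, -0.08 ± 0.21, -0.33 ± 0.19, 0.52 ± 0.17 and 0.66 ± 0.31 did not pass (edgeR adjusted p from 0.126 to 0.904). Of the 21 immediate early and heat shock genes 10 had a more negative change in type A than in principal cells and 0 a more positive one. Klf2 was 1 of them, at -1.29 ± 0.22 (edgeR adjusted p = 0.00341), and Nr4a1 another, at -1.75 ± 0.30 (edgeR adjusted p = 0.00300). Of the 13 mitochondrially encoded genes 7 had a more positive change in type A cells, by 0.49 to 0.61, and 0 a more negative one. Each of these 7 passed in 2 or 3 of the 6 fits that left out a mouse (edgeR adjusted p up to 0.195), while Klf2 and Nr4a1 passed in all 6.

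**Figure D5:**
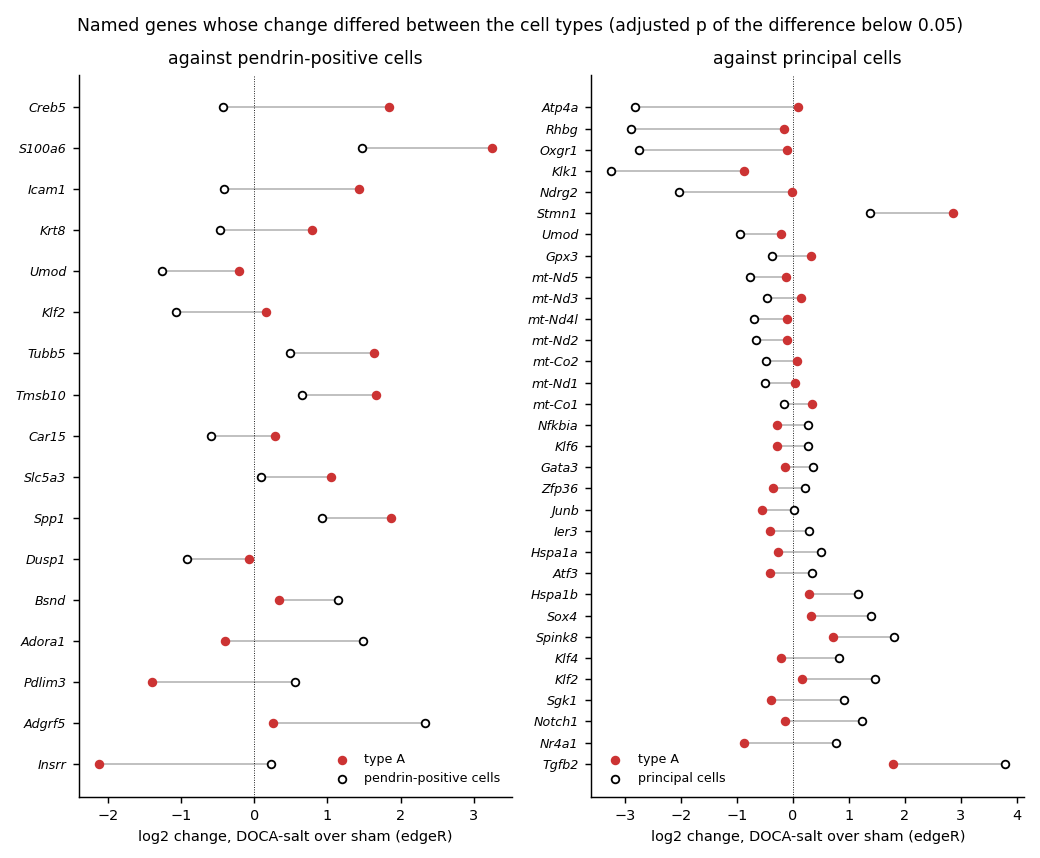
Log2 change (DOCA-salt over sham) in type A cells (red) and in pendrin-positive or principal cells (open) for the named and listed genes whose changes differed at an adjusted p below 0.05, each row a gene. Adgrf5 moves by 0.26 in type A and 2.34 in pendrin-positive cells, and Sgk1 by -0.39 in type A and 0.92 in principal cells, and Cxcl1, Cxcl2 and C3, not tested in each cell type alone, are left out.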

How the data were processed

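Kidney cells of 6 mice were captured with the 10x Genomics 3′ v3.1 kit. The deposited values are raw UMI counts, 1 per gene for each barcode, which the authors made with Cell Ranger on GRCm39 (release 9.0.0 per the labels, 8.0.1 per the file headers). The annotation release is not given in the sources used here. The members and gene lists were chosen with earlier results of these data known. Counts were summed per mouse over type A cells (libraries of 800998 to 2021803 UMIs). edgeR 4.0.16 (R 4.3.3; filterByExpr, TMM, quasi-likelihood F test, Benjamini-Hochberg over all genes tested) compared groups at an adjusted p below 0.05. The SE is the log2 change over the square root of F. The 13 genes of the rule were not tested. Differences between cell types were tested as an interaction with the mouse as block. Shares were compared with exact permutation tests. Named are called genes and defining members of 28 lists, and up to 10 of the largest rises and falls outside them (mean of at least 20 CPM, no overlap). The results of 2 genes are not reported here. In all, 14 list symbols were matched through older names. Proximal tubule cells (2116) had at least 1% of UMIs from the 4 proximal genes and 0 UMIs of Atp6v1g3, Ptprc, Pecam1 and Col1a1. On simulated counts of 10143 genes the test recovered 99% of 4-fold and 61% of 2-fold changes, and 14 of its 174 calls were genes that had not been changed. Changes were placed only in genes above a minimum of summed UMIs that some tested genes did not reach. The recovery of genes with few UMIs is therefore not covered. DESeq2 1.42.0 served as an alternative. Scrublet (scanpy 1.11.5) marked doublets at 0.8% per 1000 barcodes, which were kept in the main results. Reads that align to several genes are not counted by Cell Ranger, so Hspa1a, Hspa1b and Mt2 are uncertain. Promoters came from GRCm39 with GENCODE M39.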

Additional observations from a re-analysis of the deposited data

Results flagged for a closer look

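The changes of 52 reported combinations of a named or listed gene and a cell type differed between type A cells and another cell type of the collecting duct by a test of the difference itself (edgeR, interaction of cell type and DOCA-salt, adjusted p below 0.05). Values are the log2 change in type A cells minus that in the other cells. All 52 kept their direction in every fit that left out 1 mouse and tested them (5 fits for C3, 6 for the others), and 16 of the 52 kept an adjusted p below 0.05 in all 6. Groups of 3 mice are too small for a test of single mice, so none was run.

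Against pendrin-positive cells, the difference was positive for C3 (5.44), Cxcl2 (4.61), Cxcl1 (4.34), Creb5 (2.31), S100a6 (2.04), Icam1 (1.93), Krt8 (1.28), Umod (1.18), Klf2 (1.17), Tubb5 (1.09), Tmsb10 (1.06), Car15 (0.97), Slc5a3 (0.92), Spp1 (0.88) and Dusp1 (0.80). It was negative for Insrr (-2.38), Adgrf5 (-2.10), Pdlim3 (-1.94), Adora1 (-1.89) and Bsnd (-0.81). With library size alone Adora1 and Bsnd missed the threshold. C3, Cxcl2 and Cxcl1 had 2, 6 and 7 UMIs in all sham type A cells, so that the size of their differences is poorly fixed, and without sham mouse 1 none of the 3 passed (edgeR adjusted p = 0.779, 0.882 and 0.622). C3 and Cxcl1 did not pass the filter for the test within type A cells and entered only the fit of both cell types. Cxcl1 had 4, 1 and 2 against 8, 19 and 63 UMIs in type A cells. In pendrin-positive cells it had 88, 15 and 3 against 3, 1 and 24 UMIs. Sham mouse 1 thus held 88 of the 106 sham UMIs of Cxcl1 there, and 75 of the 79 of Cxcl2. Of the 90 DOCA-salt UMIs of Cxcl1 in type A cells the large barcodes held 54. With large barcodes left out of each cell type, an alternative chosen after seeing the data, Spp1, Icam1, Tmsb10, Tubb5, Dusp1, Cxcl1, C3, Adora1 and Bsnd missed the threshold (edgeR adjusted p from 0.0644 to 0.208), and all 20 kept their direction.

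Against principal cells, the difference was positive for Atp4a (2.98), Rhbg (2.72), Oxgr1 (2.64), Klk1 (2.37), Ndrg2 (2.05), Stmn1 (1.61), Umod (0.78) and Gpx3 (0.69). It was also positive for mt-Nd5 (0.61), mt-Nd3 (0.60), mt-Nd4l (0.59), mt-Nd2 (0.55), mt-Co2 (0.53), mt-Nd1 (0.52) and mt-Co1 (0.49). It was negative for Tgfb2 (-1.98), Nr4a1 (-1.75), Notch1 (-1.42), Sgk1 (-1.33), Klf2 (-1.29), Klf4 (-1.10), Spink8 (-1.05), Sox4 (-1.04), Hspa1b (-0.89), Atf3 (-0.76), Hspa1a (-0.74), Ier3 (-0.69), Junb (-0.60), Zfp36 (-0.58), Gata3 (-0.56), Klf6 (-0.56) and Nfkbia (-0.55). With large barcodes left out of each cell type 31 of these 32 passed and Gata3 did not (edgeR adjusted p = 0.064). Umod, Gpx3 and Klk1 are in the marker lists of the thick limb, the proximal tubule, and the distal convoluted and connecting tubule. Umod had 276, 23 and 240 against 180, 231 and 171 UMIs in type A cells. The part of RNA from other cells in their differences, also in that of Umod from pendrin-positive cells, was not tested.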

How the results depend on the processing

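The 132 called genes became 527 with no filter on low counts, 60 with at most 20% mitochondrial UMIs, 21 with the same number of cells and UMIs per mouse and 0 in the 93 cells without Aqp2 and Slc4a9 (edgeR; 130 genes at an unadjusted p below 0.05 there, of 2463 tested; DESeq2 was not run on those cells). Leaving out 1 mouse gave 40 to 190 calls, and all 132 genes kept their direction in these 6 fits. DESeq2 called 144 genes, 114 of them among the 132. With the mouse number as a replicate block 30 genes were called, all of them among the 132. The labels do not say whether equal numbers mark a pair. Deviations of same-numbered mice correlated at -0.184, -0.337 and -0.126, and these few values cannot decide whether a day or batch was shared. The stricter selection and the removal of Scrublet doublets, both chosen after seeing the data, gave 127 and 126 calls. Without the 10 large barcodes, also chosen after seeing the data, 95 genes were called, 90 of them among the 132, and the differences from pendrin-positive and principal cells gave 38 and 365 calls in place of 59 and 302. The difference from pendrin-positive cells gave 14 to 163 calls and that from principal cells 138 to 270 when 1 mouse was left out. With at most 20% mitochondrial UMIs the difference in the type A share of kept barcodes turned from 0.283 to -0.0779 percentage points. Leaving out 1 mouse gave 0.0717 to 0.419 points for this share and 12.7 to 23.2 points for the share of intercalated cells.

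Of the 33 named called genes none changed direction in any of the alternatives that tested it. With the replicate block 19 of them lost their call, as did 11 of 30 tested with at most 20% mitochondrial UMIs, 10 of 15 with equal cells and UMIs, 7 of 31 without the large barcodes and 8 of 8 in cells without Aqp2 and Slc4a9. Leaving out sham mouse 1, 2 or 3 removed the call of 16, 0 and 19 of the 33 genes. Leaving out DOCA-salt mouse 1, 2 or 3 removed that of 9, 8 and 10. Genes that were not called changed sign as follows. In cells without Aqp2 and Slc4a9 the log2 changes were 0.10 for Atp6v1b1, 0.22 for Atp6v0a4, 0.0361 for Atp6v0d2, 1.26 for Slc26a7 and 0.15 for Nr3c2. With at most 20% mitochondrial UMIs they were -0.0357 for Car2, -0.25 for Rhcg, -0.0889 for Adgrf5 and -0.0013 for Ptger3. With equal cells and UMIs they were 0.0169 for Atp6v0d2 and 0.0531 for Oxgr1, without the large barcodes Oxgr1 was at 0.000177, and leaving out 1 mouse moved Slc26a7 between -0.383 and 0.0129, the latter without sham mouse 2. The cause was not tested. Depth limits most the genes of few UMIs, such as Krt19, Vcam1 and Cxcl2, and sham mouse 2 had 72 cells.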

Other observations

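Genes of the circadian clock were looked up after Nr1d1 and Nr1d2 were seen to fall, so their choice followed the data. Per1 among them was also a member of the mineralocorticoid response list. Leaving out those 2 genes, which prompted the look-up, 15 were tested in type A cells, of which 2 (Dbp and Cry2) fell and none rose, with a median log2 change of -0.61 beside 0.00 for all genes. Dbp, a clock output transcription factor, stood at 28.7, 23.7 and 19.8 CPM in sham mice and at 2.67, 7.91 and 5.06 CPM in DOCA-salt mice (log2 change -2.17 ± 0.34, edgeR adjusted p = 0.00855). Cry2, a clock repressor, stood at 66.6, 86.1 and 53.3 CPM against 39.5, 25.2 and 32.9 CPM (log2 change -1.03 ± 0.21, edgeR adjusted p = 0.036). Arntl, encoding the activator BMAL1, lay in the other direction, at 15.9, 7.49 and 25.3 CPM against 40.0, 34.6 and 44.0 CPM, and did not pass (log2 change 1.21 ± 0.28, edgeR adjusted p = 0.0655). Clock, its partner, lay between 82.9 and 91.1 CPM in sham mice and 84.6 and 97.0 CPM in DOCA-salt mice. The same genes in pendrin-positive cells changed by -2.20 for Nr1d1, -1.46 for Dbp and -1.36 for Cry2, and in principal cells by -2.30, -2.69 and -0.94, in cells of the same mice and libraries. Of the 17 clock genes 2 differed from principal cells. Hlf changed by 0.10 in type A and -2.19 in principal cells (difference 2.22 ± 0.57, edgeR adjusted p = 0.0454). Per2 changed by -0.91 and -0.12 (difference -0.80 ± 0.18, edgeR adjusted p = 0.0249). The time of day at which each mouse was killed is not given in the sources used here, and its part in these values was not tested.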
